A study of Homo sapiens with 27 samples.

Results

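Lactate export and pH regulation were followed through 7 genes: SLC16A3, SLC16A1 and SLC16A14 of the monocarboxylate transporter family, the bicarbonate importer SLC4A7, and the carbonic anhydrases CA9, CA12 and CA2. They were chosen by name from the families that handle lactate, protons and bicarbonate, with earlier results of these data known, and were 7 of 21487 genes in the count table. All 7 were among the 13943 genes with enough counts to be tested, CA9 only through the parental hypoxic groups where it was highest. The cells were Panc1, an established human pancreatic ductal adenocarcinoma line, as ARNT KO clone B, ARNT KO clone A and parental control cells. The knockouts were made with CRISPR-Cas9, and each is a single clone, so the effect of the lost gene and the history of a clone cannot be told apart within 1 clone. Each of these was kept for 48 hours in hypoxia (1% O2) in TIFM, a medium modelled on pancreatic tumor interstitial fluid, in hypoxia in regular medium (DMEM with 10% FBS and 1% P/S), or in normoxia (20% O2) in regular medium. That gave 9 groups of 3 libraries of polyA RNA. TIFM was given only in hypoxia.

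Cells that live on glycolysis turn pyruvate into lactate and must export it together with a proton. SLC16A1 (MCT1) carries lactate and pyruvate with a proton in either direction, and SLC16A3 (MCT4) is known mainly as the exporter of glycolytic cells. SLC16A14 is a family member whose substrate is not settled. SLC4A7 (NBCn1) brings sodium and bicarbonate into the cell, CA9 and CA12 convert carbon dioxide and bicarbonate at the outer cell surface, and CA2 does so in the cytosol and is known in pancreatic duct cells. ARNT is the partner that the HIF alpha subunits need to bind hypoxia response elements, and CA9 and SLC16A3 are textbook HIF targets.

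The promoter windows of CA9, CA12 and SLC16A3 are shown because these 3 genes were the ones higher in parental hypoxia than in parental normoxia. They are the 250 bases before the transcription start in RefSeq (GRCh38.p14), 5′ to 3′ on the gene's strand, and capitals mark ACGTG or GCGTG, the core of the hypoxia response element, on either strand (CACGT and CACGC are the same letters on the other strand). The CA9 window is chr9:35673678-35673927 (plus strand), the CA12 window chr15:63381847-63382096 (minus strand), and the SLC16A3 window chr17:82228792-82229041 (plus strand). SLC16A3 has 5 RefSeq starts, and its second start is shown because it alone holds ACGTG.
CA9: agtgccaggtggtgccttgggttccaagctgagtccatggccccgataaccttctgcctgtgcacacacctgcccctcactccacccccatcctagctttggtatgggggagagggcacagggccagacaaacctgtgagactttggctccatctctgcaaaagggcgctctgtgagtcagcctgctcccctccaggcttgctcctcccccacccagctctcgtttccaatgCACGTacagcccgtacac
CA12: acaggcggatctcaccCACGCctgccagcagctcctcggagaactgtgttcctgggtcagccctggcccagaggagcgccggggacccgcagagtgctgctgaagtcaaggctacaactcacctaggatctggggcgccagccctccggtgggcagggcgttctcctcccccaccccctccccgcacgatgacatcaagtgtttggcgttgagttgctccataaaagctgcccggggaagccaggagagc
SLC16A3: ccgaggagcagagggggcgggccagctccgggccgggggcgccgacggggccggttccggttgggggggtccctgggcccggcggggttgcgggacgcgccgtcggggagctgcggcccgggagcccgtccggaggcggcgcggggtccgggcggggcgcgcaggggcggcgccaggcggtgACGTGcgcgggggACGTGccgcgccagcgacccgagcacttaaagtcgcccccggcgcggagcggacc
The CA9 window held 1 ACGTG, 18 bases before the start on the other strand. The CA12 window held 1 GCGTG, 234 bases before the start on the other strand. The SLC16A3 window held 2 ACGTG, 68 and 55 bases before the start. In all, 10 windows of 5 of the genes were read, and 6 held a match. Of 35116 such windows in RefSeq, 43.2% held ACGTG or GCGTG and 18.5% held ACGTG, so these letters are common. The window of SLC16A14, at chr2:230068925-230069174 (minus strand), held neither. The first window of SLC4A7, which was not called for hypoxia in any genotype, held 2 GCGTG, 138 and 110 bases before the start. Its second window held neither.

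The 27 libraries held 26057022 to 38341713 counts (median 31727174), and each was nearest to a library of its own group. Levels are CPM, counts scaled to library size with TMM factors, and a gene was called at an adjusted p under 0.05 in edgeR's quasi-likelihood test over all tested genes. No label says that replicates were separate cultures, so p-values measure the spread between these libraries, which may be technical. That spread, as a biological coefficient of variation, was 21.95% over the TIFM groups, 9.59% over the hypoxia groups and 6.97% over the normoxia groups, and was highest in clone A in TIFM (29.2%). ARNT transcript was counted in every library (44.6 to 77.4 CPM), so its counts do not check the knockout. KRT8, KRT18, KRT19 and VIM were present at 71.9 CPM or more in every library, while INS was at 0 and PTPRC, CD3E, PECAM1, CDH5, GCG, PRSS1 and CPA1 did not pass 1.21 CPM. EPCAM (16.7 to 40.9 CPM) and KRT7 (2.02 to 12.4 CPM) were low but present, CD68 was at 76.6 to 296 CPM and ALB reached 8.66 CPM; the part of the last pair in the results was not tested. In bulk RNA, less transcript per cell and fewer cells with the transcript cannot be told apart.

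**Figure D1:**
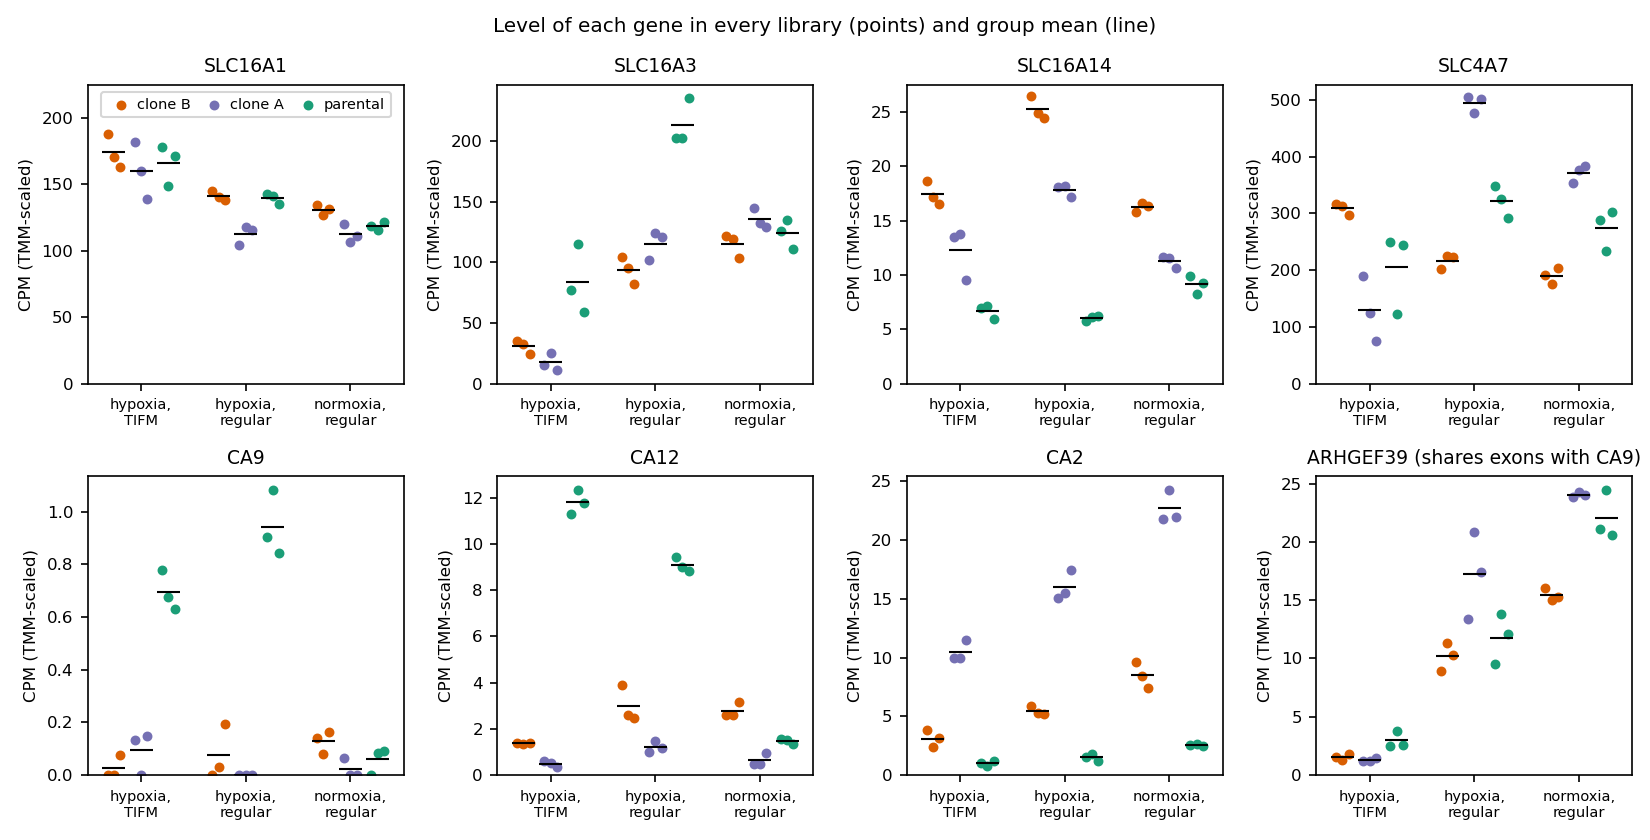
Level of each gene in CPM (TMM-scaled, linear axis from 0) in all 27 libraries, with clone B, clone A and parental cells side by side in hypoxic TIFM, hypoxia and normoxia. Points are libraries, lines are group means, and the last panel shows ARHGEF39, which shares exons with CA9. CA9 and CA12 stand high only in parental hypoxic groups in these panels, and CA2 stands in the order clone A, clone B, parental in every condition.

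SLC16A3 (chr17:82228397-82261129, plus strand, GRCh38), the lactate exporter, was higher in hypoxia than in normoxia in parental cells, was not called in either clone, and fell in TIFM in all 3 genotypes. In parental cells its level was 203, 203 and 236 CPM in hypoxia, against 126, 135 and 111 CPM in normoxia, a log2 fold change of 0.78 ± 0.21 (SE, adjusted p = 0.00559). The groups did not overlap. In clone A it was 102, 124 and 121 CPM in hypoxia, against 145, 132 and 129 CPM in normoxia (log2 -0.23 ± 0.21, adjusted p = 0.457). The clone A groups did not overlap either, with hypoxia the lower one. In clone B it was 105, 95.6 and 82.0 CPM in hypoxia, against 122, 119 and 104 CPM in normoxia (log2 -0.29 ± 0.21, adjusted p = 0.423), and these groups overlapped. In a fit of the compared groups alone clone B was called lower in hypoxia (adjusted p = 0.0363). The response of clone A was lower than the parental response by a log2 difference of -1.02 ± 0.29 (adjusted p = 0.036), and that of clone B by -1.07 ± 0.29 (adjusted p = 0.0314). Both differences lost the call when a library was left out, the first without 11 of 12 libraries (adjusted p up to 0.1) and the second without 9 of 12 (up to 0.0891). In fits of the compared groups alone they had adjusted p = 2.01e-05 and 7.85e-06.

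In TIFM the SLC16A3 level fell to 35.5, 32.7 and 24.1 CPM in clone B, 15.7, 25.5 and 11.5 CPM in clone A, and 76.9, 116 and 59.0 CPM in parental cells. No TIFM library reached the lowest library of its genotype in hypoxic regular medium. The fall was -1.61 ± 0.22 in clone B, -2.71 ± 0.23 in clone A and -1.35 ± 0.21 in parental cells on the log2 scale (adjusted p = 7.93e-07, 1.03e-10 and 1.43e-05 in that order). It was larger in clone A than in parental cells by -1.36 ± 0.30 (adjusted p = 0.000842), and smaller in clone B than in clone A by 1.10 ± 0.30 (adjusted p = 0.0056). The difference of clone B from parental cells was -0.26, with a 95% interval of -0.87 to 0.35 (adjusted p = 0.625). Over the 9 groups SLC16A3 was highest in parental hypoxia, which overlapped no other group, and lowest in the clones in TIFM, which overlapped each other. In normoxia neither clone passed the test against parental cells (115 ± 9.70, 136 ± 8.32 and 124 ± 12.2 CPM in clone B, clone A and parental cells, SD, n = 3 each). In hypoxia clone B stood -1.18 ± 0.21 and clone A -0.89 ± 0.21 from parental cells on the log2 scale (adjusted p = 6.62e-05 and 0.00125), both comparisons using the same parental libraries. In TIFM clone B stood -1.44 ± 0.21 and clone A -2.25 ± 0.22 from parental cells, and clone B was higher than clone A by 0.81 ± 0.22 (adjusted p = 0.00285, 0.0512 in a fit of the compared groups alone). SLC16A3 shares 5.36% of its exon bases with CSNK1D on the opposite strand.

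SLC16A1 (chr1:112911847-112957013, minus strand), the bidirectional lactate carrier, varied least of the 6 members counted in every group, by 1.55-fold between its highest and lowest group means. It rose in TIFM in all 3 genotypes. Its level was 174 ± 12.6 CPM in clone B, 160.2 ± 21.4 CPM in clone A and 166 ± 15.3 CPM in parental cells in TIFM, against 141 ± 3.16, 113 ± 7.45 and 139 ± 3.98 CPM in hypoxic regular medium in the same genotypes (SD, n = 3 each). The log2 fold changes were 0.30 ± 0.09, 0.51 ± 0.09 and 0.25 ± 0.09 (adjusted p = 0.0089, 3.72e-05 and 0.0347). The parental call was lost without any 1 of 5 of its 6 libraries and in a fit of the compared groups alone (adjusted p between 0.0119 and 0.148 over the alternatives). In hypoxia against normoxia SLC16A1 was not called in any genotype. The parental value was closest, with 142, 141 and 135 CPM in hypoxia against 119, 115 and 121 CPM in normoxia (log2 0.24 ± 0.09, adjusted p = 0.0591), and it passed with DESeq2 (adjusted p = 0.0188). In hypoxia clone A was lower than parental cells by a log2 value of -0.31 ± 0.09 (adjusted p = 0.0102), a call lost without the first clone A hypoxia library (adjusted p = 0.0521). Clone B was higher than clone A in hypoxia (adjusted p = 0.0118 in edgeR). That call was lost without the same library (log2 0.27, adjusted p = 0.0606).

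SLC16A3 and SLC16A1 moved in opposite directions in TIFM. The ratio of SLC16A3 to SLC16A1, both per kilobase of exon, was 0.104 ± 0.0146 in clone B, 0.0647 ± 0.0256 in clone A and 0.306 ± 0.135 in parental cells in TIFM, against 0.394 ± 0.0396, 0.606 ± 0.0227 and 0.908 ± 0.108 in hypoxic regular medium (SD, n = 3 each). The libraries did not overlap in any genotype. In hypoxia the ratio was 0.908 ± 0.108 in parental cells, against 0.621 ± 0.0760 in normoxia. In clone B it was 0.394 in hypoxia, against 0.518 in normoxia, and in clone A 0.606 in hypoxia, against 0.711 in normoxia. Each of these 6 comparisons had p = 0.1 in a two-sided exact permutation test, the smallest that 3 libraries against 3 allow. The exon length of SLC16A3 (8995 bases over all its transcripts) holds many alternative exons, so only changes of the ratio are read, not which of the 2 genes is more abundant.

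**Figure D2:**
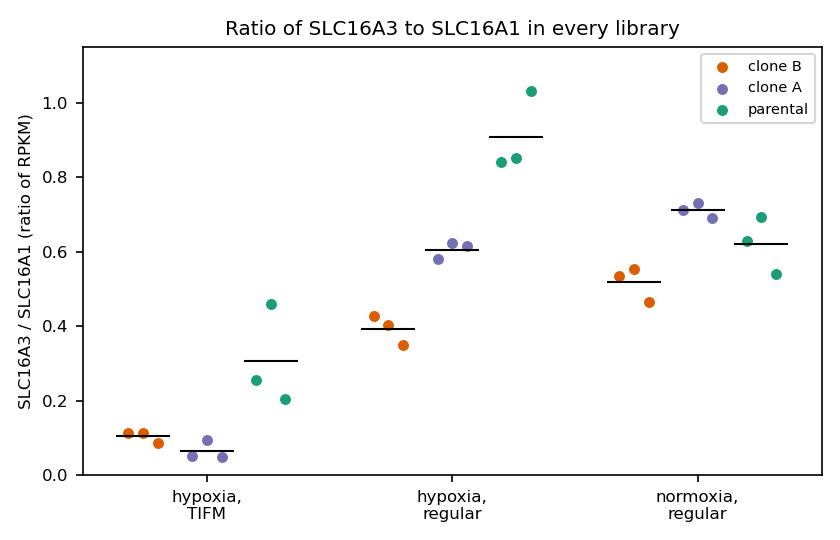
Ratio of SLC16A3 to SLC16A1 (RPKM over RPKM, linear axis from 0) in each library, by condition and genotype. Points are libraries and lines are group means. The mean ratio lies between 0.0647 and 0.306 in hypoxic TIFM, and is highest in parental hypoxia at 0.908.

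SLC16A14 (chr2:230034974-230068999, minus strand) moved in opposite directions in the clones and in parental cells in hypoxia. In hypoxia against normoxia it rose in clone B, to 26.5, 24.9 and 24.5 CPM against 15.8, 16.6 and 16.3 CPM, and in clone A, to 18.1, 18.1 and 17.2 CPM against 11.6, 11.5 and 10.7 CPM. In parental cells it fell, to 5.73, 6.16 and 6.24 CPM in hypoxia against 9.94, 8.24 and 9.29 CPM in normoxia. None of the 3 pairs of groups overlapped. The log2 fold changes were 0.64 ± 0.12 in clone B, 0.66 ± 0.12 in clone A and -0.60 ± 0.12 in parental cells (adjusted p = 0.00149, 0.000446 and 0.000661). The response differed from the parental one by 1.24 ± 0.17 in clone B and 1.26 ± 0.17 in clone A (adjusted p = 3.14e-05 and 2.54e-05), and these calls were kept without any 1 library.

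In TIFM SLC16A14 fell in both clones, to 17.5 ± 1.11 CPM in clone B and 12.3 ± 2.37 CPM in clone A, against 25.3 ± 1.06 and 17.8 ± 0.554 CPM in hypoxic regular medium (SD, n = 3 each; log2 -0.53 ± 0.12 in both, adjusted p = 0.000508 and 0.000397). In parental cells it was 6.68 ± 0.628 CPM in TIFM and 6.04 ± 0.277 CPM in regular medium (adjusted p = 0.371). It was higher in clone B than in parental cells in all 3 conditions, by 1.39 ± 0.13 in TIFM, 2.06 ± 0.13 in hypoxia and 0.83 ± 0.12 in normoxia on the log2 scale. In clone A it was higher by 0.88 ± 0.13 in TIFM and 1.56 ± 0.12 in hypoxia, while 0.30 ± 0.12 in normoxia was not called (adjusted p = 0.0658). Clone B was also higher than clone A by 0.51 to 0.53 in every condition, the TIFM call being lost in a fit of the compared groups alone (adjusted p = 0.0685). From high to low the groups ran clone B, clone A, parental within each condition.

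SLC4A7 (chr3:27372721-27484420, minus strand), the bicarbonate importer, did not pass the test for hypoxia in any genotype, and in TIFM the 3 genotypes differed. In fits of the compared groups alone it was called higher in hypoxia in clone B (adjusted p = 0.025) and clone A (adjusted p = 0.000616). In TIFM its level was 317, 313 and 298 CPM in clone B, 189.8, 124 and 74.6 CPM in clone A, and 250.2, 122 and 244 CPM in parental cells. In hypoxic regular medium it was 201, 226 and 224 CPM in clone B, 506, 477 and 502 CPM in clone A, and 348, 326 and 293 CPM in parental cells. The TIFM libraries of clone A and of parental cells were widely spread, those of clone B were not. The log2 fold change was 0.51 ± 0.22 in clone B (adjusted p = 0.0516, called with DESeq2 at 0.0369), -1.93 ± 0.23 in clone A (adjusted p = 4.37e-08) and -0.65 ± 0.22 in parental cells (adjusted p = 0.0196). The parental call was lost without its second TIFM library (log2 -0.38, adjusted p = 0.14), without its first hypoxia library (adjusted p = 0.0644) and in a fit of the compared groups alone (adjusted p = 0.0569).

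The SLC4A7 response to TIFM in clone B exceeded that in clone A by 2.45 ± 0.31 (adjusted p = 5.96e-06), and the parental response by 1.16 ± 0.31 (adjusted p = 0.0173). Clone A stood at -1.28 ± 0.31 from the parental response (adjusted p = 0.00204). The clones also differed in the other conditions. In hypoxia the log2 difference of clone B from clone A was -1.19 ± 0.22, with 217 ± 13.5 CPM in clone B and 495 ± 15.6 CPM in clone A (SD, n = 3 each). In normoxia it was -0.96 ± 0.22, with 190.4 ± 13.99 CPM in clone B and 371 ± 16.0 CPM in clone A (SD, n = 3 each). Parental cells lay between the clones in both conditions. Against parental cells in hypoxia, clone B stood at -0.57 ± 0.22 (adjusted p = 0.0443) and clone A at 0.62 ± 0.22 (adjusted p = 0.0253). The first call was lost without any 1 of 6 libraries, and the second without any of 4 (adjusted p up to 0.129 and 0.092). In TIFM clone B stood at 0.59 ± 0.22 from parental cells (0.33 without the second parental TIFM library, adjusted p = 0.209) and clone A at -0.66 ± 0.22 (-0.39 without clone A TIFM library 3, adjusted p = 0.0796). The clone B call was also lost without its second TIFM library, the clone A call without parental TIFM library 1 or 3, and both in fits of the compared groups alone (adjusted p = 0.0615 and 0.117).

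CA9 (chr9:35673856-35681159, plus strand), a surface carbonic anhydrase, had few counts, and most of them were in parental hypoxic cells. Parental cells had 36, 43 and 30 counts in hypoxia, against 0, 3 and 3 counts in normoxia, and the groups did not overlap. Summed and scaled for depth, hypoxia over normoxia was 15.8-fold, with a 95% interval of 7.03 to 44.0 that covers counting error only, because reads without molecular identifiers are not independent molecules. CA9 passed the low-count filter only through the parental hypoxic groups, so a test after that filter had to favour a difference from them, and its p-values here are from the fit without the filter. There the log2 change was 3.90 ± 0.80 (adjusted p = 0.000572). Clone B had 0, 1 and 7 counts in hypoxia against 5, 3 and 6 in normoxia (ratio 0.601, interval 0.218 to 1.53), and clone A had 0, 0 and 0 counts in hypoxia against 2, 0 and 0 in normoxia. In hypoxia CA9 in clone A was 30.4-fold below parental cells against a floor of 3 counts over the group. The floor is a convention, and the interval of the ratio to parental cells was 0 to 0.04115 (adjusted p = 9.41e-06 without the filter). In clone B CA9 was at 0.0814 of the parental level in hypoxia (interval 0.0343 to 0.166, adjusted p = 0.00059 without the filter). The hypoxia response of clone B differed from the parental one by a log2 value of -4.62 ± 1.22 without the filter (adjusted p = 0.0283). With the filter that call was lost without any of 4 of 12 libraries (adjusted p up to 0.0805). For clone A the difference was -6.56 ± 2.47 without the filter and was not called (adjusted p = 0.15). It rests on a group with no count.

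In TIFM parental cells kept 26, 19 and 17 CA9 counts, 0.740-fold of the regular-medium level (interval 0.533 to 1.02, adjusted p = 0.643 without the filter). Clone B had 0, 0 and 2 counts in TIFM and clone A had 4, 0 and 3. Clone B was at 0.0324 (interval 0.00384 to 0.122) and clone A at 0.135 (interval 0.0520 to 0.294) of the parental TIFM level, with adjusted p = 0.000278 and 0.00407 without the filter. In clone A CA9 was 3.03-fold higher in TIFM than in regular medium against the same floor, on 7 counts against 0. The interval of the ratio itself began at 1.87 and had no upper limit (adjusted p = 0.0244 without the filter). With the filter, this difference did not pass the test in 5 of 6 fits that each left out 1 library. CA9 shares 38.5% of its exon bases (643 bases) with ARHGEF39, which lies on the opposite strand, and whether reads were counted by strand is not given in the sources used here. What the shared bases add to the CA9 counts was not tested. ARHGEF39 was at 11.8 ± 2.14 CPM in parental hypoxia, against 22.1 ± 2.12 CPM in parental normoxia (SD, n = 3 each). Its log2 fold change was -0.90 ± 0.16 (adjusted p = 0.000139). In clone A hypoxia ARHGEF39 had 416, 661 and 586 counts beside the 3 CA9 values of 0. In TIFM it fell in every genotype (log2 -2.72 in clone B, -3.75 in clone A and -1.99 in parental cells).

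CA12 (chr15:63321378-63382161, minus strand), the other surface carbonic anhydrase, rose in hypoxia in parental cells, with a smaller change in clone A and no call in clone B. In parental cells it rose to 9.44, 9.00 and 8.83 CPM in hypoxia, against 1.58, 1.52 and 1.33 CPM in normoxia, a log2 fold change of 2.62 ± 0.20 (6.15-fold, adjusted p = 4.73e-10). In clone A it was 0.998, 1.48 and 1.19 CPM in hypoxia against 0.488, 0.481 and 0.932 CPM in normoxia (log2 0.93 ± 0.25, adjusted p = 0.00915), a call lost without any of 3 of 6 libraries (adjusted p up to 0.0599). In clone B it was 3.92, 2.59 and 2.46 CPM in hypoxia against 2.62, 2.62 and 3.14 CPM in normoxia (log2 0.09 ± 0.20, 95% interval -0.31 to 0.50). The groups overlapped only in clone B. The response was smaller than the parental one by -2.53 ± 0.28 in clone B (adjusted p = 9.63e-07) and -1.69 ± 0.33 in clone A (adjusted p = 0.0015), and both calls were kept without any 1 library.

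In TIFM the parental CA12 level was 11.3, 12.4 and 11.8 CPM, above every parental library in hypoxic regular medium, but without passing the test (log2 0.38 ± 0.18, adjusted p = 0.0935, 0.0181 in a fit of the compared groups alone). In the clones it fell in TIFM, to 1.40, 1.33 and 1.40 CPM in clone B and 0.602, 0.4997 and 0.346 CPM in clone A. The log2 fold changes were -1.12 ± 0.21 and -1.30 ± 0.27 (adjusted p = 9.15e-05 and 0.000171). Each differed from the parental response, by -1.49 ± 0.28 in clone B and -1.68 ± 0.33 in clone A (adjusted p = 0.00114 and 0.000263). Against parental cells in TIFM, CA12 was lower in both clones, at -3.10 ± 0.21 in clone B and -4.57 ± 0.24 in clone A on the log2 scale. In normoxia the clones lay on opposite sides of parental cells, 0.92 ± 0.21 in clone B and -1.20 ± 0.24 in clone A (adjusted p = 0.00135 and 0.000403). CA12 was higher in clone B than in clone A in every condition, by 1.28 to 2.12 on the log2 scale.

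CA2 (on chromosome 8), the cytosolic carbonic anhydrase, fell in hypoxia in all 3 genotypes and stood above the parental level in both clones in every condition. In hypoxia it was 5.89, 5.29 and 5.19 CPM in clone B, 15.1, 15.5 and 17.5 CPM in clone A, and 1.51, 1.79 and 1.21 CPM in parental cells. In normoxia it was 9.66, 8.45 and 7.40 CPM in clone B, 21.8, 24.3 and 21.97 CPM in clone A, and 2.57, 2.67 and 2.44 CPM in parental cells. No hypoxia library reached a normoxia library of its genotype. The log2 fold changes were -0.64 ± 0.16 in clone B, -0.50 ± 0.15 in clone A and -0.77 ± 0.18 in parental cells (adjusted p = 0.0118, 0.0182 and 0.00245). The clone B call was lost without either of 2 libraries and the clone A call without any of 3 (adjusted p up to 0.0778 and 0.0786). The responses were not shown to differ, with a difference from the parental response of 0.13 (95% interval -0.37 to 0.62) in clone B and 0.27 (-0.22 to 0.75) in clone A.

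TIFM lowered CA2 further, to 3.81, 2.35 and 3.13 CPM in clone B, 9.97, 9.95 and 11.5 CPM in clone A, and 0.988, 0.747 and 1.22 CPM in parental cells. The log2 fold changes were -0.81 ± 0.17, -0.62 ± 0.15 and -0.61 ± 0.21 (adjusted p = 0.000229, 0.00105 and 0.0201). The parental groups overlapped by 1 library, and that call was lost without any of 3 libraries (adjusted p up to 0.112). Clone A stood above parental cells by 3.41 ± 0.19 in TIFM, 3.41 ± 0.18 in hypoxia and 3.15 ± 0.17 in normoxia on the log2 scale, and clone B by 1.65 ± 0.20, 1.86 ± 0.18 and 1.73 ± 0.17. All 6 had adjusted p of 1.97e-07 or lower. From high to low the 9 groups ran through clone A, clone B and parental cells, each in the order normoxia, hypoxia, TIFM. The neighbours that overlapped in that order were clone B in TIFM with parental normoxia, and parental hypoxia with parental TIFM.

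**Figure D3:**
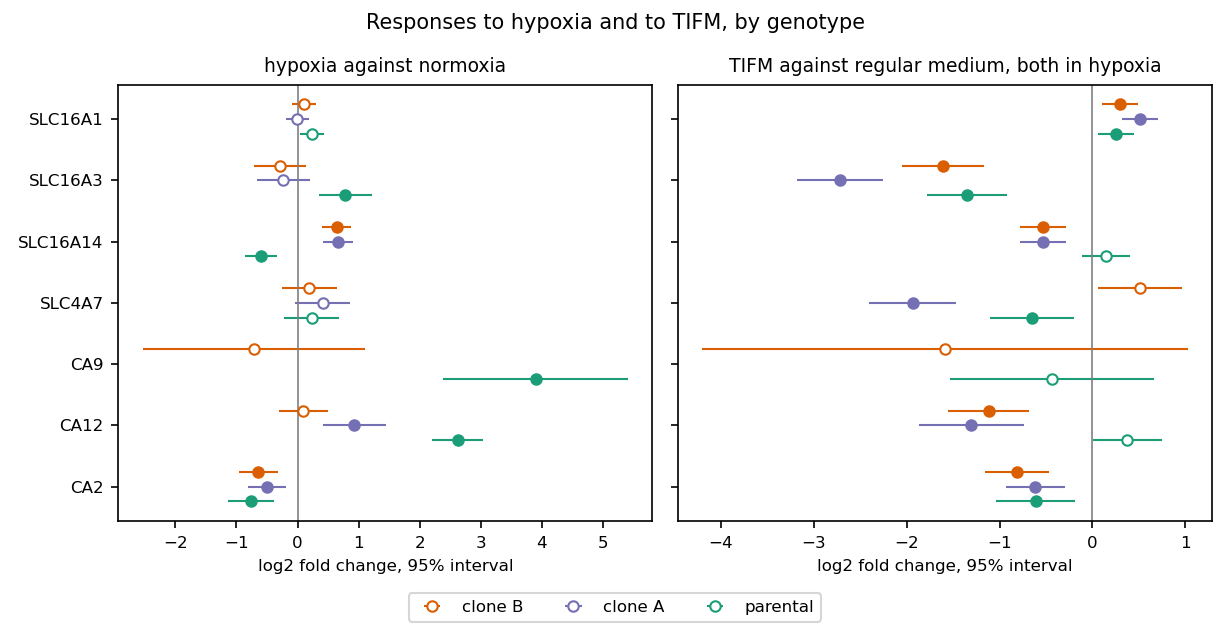
Log2 fold change with its 95% interval for each gene, hypoxia against normoxia (left) and TIFM against regular medium within hypoxia (right), in clone B, clone A and parental cells. Filled points were called at an adjusted p under 0.05. CA9 is drawn from the fit with the low-count filter, which it passed only through the parental hypoxic groups, so its fill is not read. CA9 in clone A is not drawn, since its hypoxia group has no count. SLC16A3 and CA12 have their highest hypoxia value in parental cells, and SLC16A14 is at 0.64 and 0.66 in the clones and -0.60 in parental cells.

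Counted over the 7 genes, hypoxia against normoxia called 2 in clone B (1 higher, 1 lower), where 9.3% of all tested genes were called, 3 in clone A (2 higher, 1 lower), where 22.2% were called, and 5 in parental cells (3 higher, 2 lower), where 30.2% were called. Without CA9, the parental count was 4 of 6 (2 higher, 2 lower). The median log2 fold change of the 7 was 0.095 in clone B, -0.0021 in clone A and 0.24 in parental cells, against -0.015, -0.0054 and -0.0022 over all tested genes in the same order. The hypoxia response differed from the parental one in 4 genes in clone B (1 higher, 3 lower), where 4.73% of all genes were called, and in 3 genes in clone A (1 higher, 2 lower), where 6.23% were called. Without CA9, the clone B count was 3 of 6. SLC16A14 was the higher one in both clones, and SLC16A3 and CA12 were lower in both. The median difference of response was -0.13 in clone B and -0.24 in clone A, against -0.0056 and 0.0038 over all genes. The clones share the parental libraries in these counts. Between the clones, clone B against clone A, the hypoxia response differed in 0 of the 7 genes and in 0% of all genes with edgeR, where 870 genes had an unadjusted p under 0.05 and DESeq2 called 35. Of the 7, CA12 alone had an unadjusted p under 0.05 (log2 -0.83, 95% interval -1.49 to -0.18, adjusted p = 0.611). The median was -0.056, against -0.0061 over all genes.

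TIFM within hypoxia called 5 of the 7 genes in clone B (1 higher, 4 lower; 53.7% of all genes), 7 in clone A (2 higher, 5 lower; 67.2%) and 4 in parental cells (1 higher, 3 lower; 42.2%). Without CA9, the clone A count was 6 of 6 (1 higher, 5 lower). With so many genes called, these shares say little of the 7 beyond their direction. The median log2 fold change of the 7 was -0.81, -0.62 and -0.435, against -0.029, -0.026 and -0.0032 over all genes, in the same order of genotypes. CA9 has no count in clone A hypoxia. Where the floor of 3 counts gives CA9 the sign of its fitted value, as for TIFM in clone A, the median keeps its value. For hypoxia in clone A, CA9 had 0 counts against 2, and the floor sets no bound. The hypoxia medians of -0.0021 in clone A and -0.056 for clone B against clone A therefore depend on the sign of the fitted CA9 value. The TIFM response differed from the parental one in 3 genes in clone B (1 higher, 2 lower; 10.4% of all genes) and in 5 in clone A (1 higher, 4 lower; 38.9%). Between clone B and clone A it differed in 3 (2 higher, 1 lower; 40% of all genes), namely SLC16A3, SLC4A7 and CA9. Without CA9 it differed from the parental one in 4 of 6 genes in clone A, and between the clones in 2 of 6. The medians of these differences were -0.26, -0.68 and 0.00064, against -0.028, -0.034 and -0.014 over all genes.

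Clone B against parental cells called 6 of the 7 genes in TIFM (3 higher, 3 lower; 47.5% of all genes), 6 in hypoxia (2 higher, 4 lower; 35.9%) and 3 in normoxia (3 higher, 0 lower; 26.5%). Clone A against parental cells called 6 in TIFM (2 higher, 4 lower; 61.7%), 7 in hypoxia (3 higher, 4 lower; 41.4%) and 2 in normoxia (1 higher, 1 lower; 31.6%). Without CA9 these counts in TIFM and hypoxia were 5 and 5 of 6 in clone B, and 5 and 6 of 6 in clone A. In hypoxia SLC16A3, CA9 and CA12 were lower and SLC16A14 and CA2 higher in both clones, while SLC4A7 was lower in clone B and higher in clone A. The median log2 difference of clone B from parental cells was 0.069 in TIFM, -0.57 in hypoxia and 0.83 in normoxia, against -0.0087, 0.015 and 0.0080 over all genes. For clone A it was -0.66 in TIFM, -0.31 in hypoxia and 0.13 in normoxia, against -0.0098, 0.033 and 0.036 over all genes. Clone B against clone A called 5 in TIFM (4 higher, 1 lower; 56.1%), 5 in hypoxia (3 higher, 2 lower; 25.1%) and 4 in normoxia (2 higher, 2 lower; 21.5%). In all 3 conditions SLC16A14 and CA12 were higher and CA2 lower in clone B. The medians were 0.51, 0.33 and 0.22, against 0.0067, -0.028 and -0.028 over all genes.

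**Figure D4:**
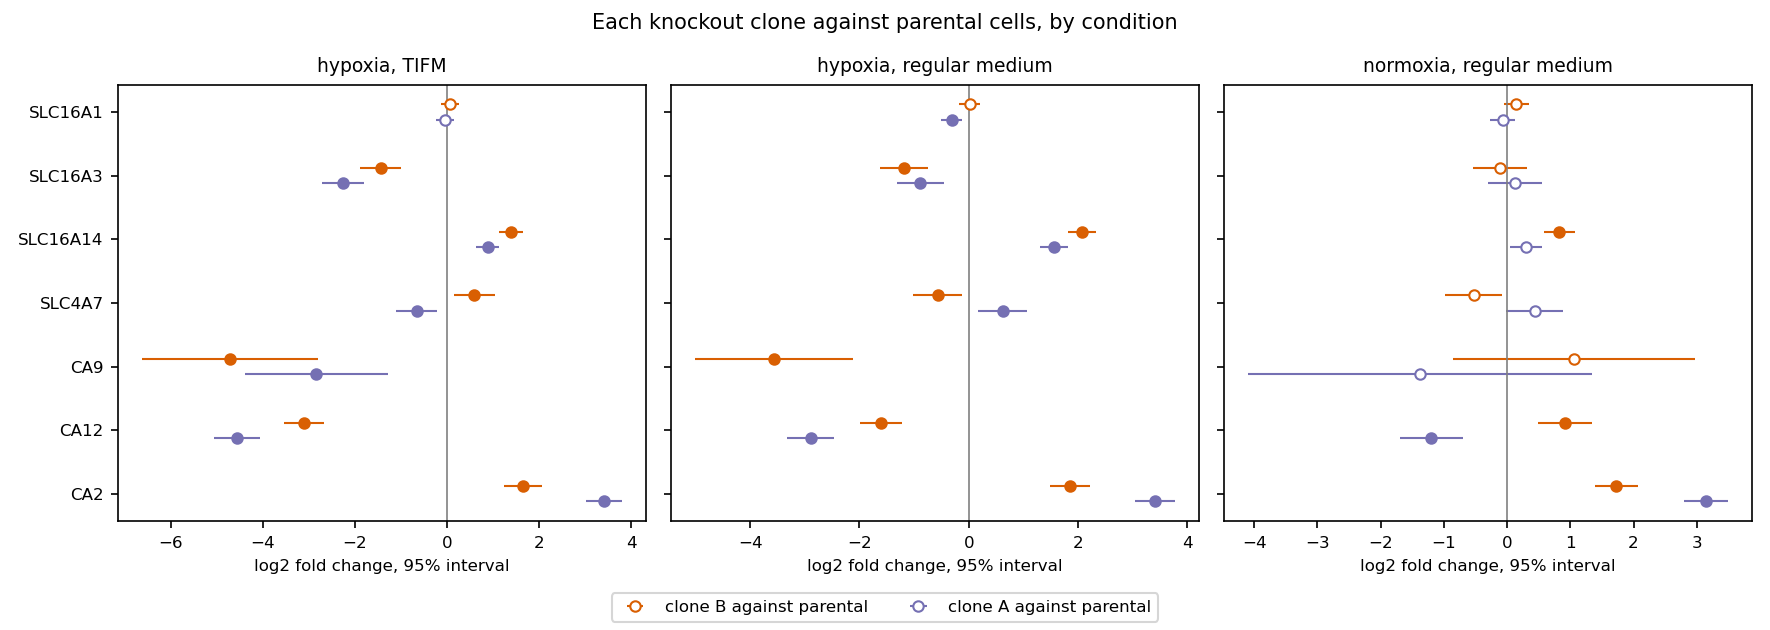
Log2 fold change with its 95% interval of each gene in clone B and clone A against parental cells, in hypoxic TIFM, hypoxia and normoxia; the parental libraries are shared by both clones. Filled points were called at an adjusted p under 0.05. CA9 is drawn from the fit with the low-count filter, which it passed only through the parental hypoxic groups, so its fill is not read. CA9 of clone A in hypoxia is not drawn, since that group has no count. CA2 lies between 1.65 and 3.41 in every condition, and CA12 lies between -4.57 and -1.61 in the hypoxic conditions.

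Other genes of lactate and pH handling were read from a list of 65, of which 44 were tested. In parental cells hypoxia against normoxia called 9 higher and 3 lower, 27.3% of the 44 against 30.2% of all tested genes, with a median of 0.24 against -0.0022. LDHA, which makes lactate from pyruvate, rose to 5738 ± 239.9 CPM in hypoxia, against 1872 ± 125 CPM in normoxia (SD, n = 3 each; log2 1.62 ± 0.11). ASIC1, an acid-sensing ion channel, rose (1.23 ± 0.19), while SLC9A2, a sodium-proton exchanger, and SLC16A4 fell (-1.05 ± 0.18 and -0.68 ± 0.24). SLC9A2 fell in the clones as well (-0.58 ± 0.17 in clone B and -0.49 ± 0.17 in clone A). Hypoxia called 2 higher and 1 lower in clone B, 6.82% of the list against 9.3% of all genes, and 7 higher and 2 lower in clone A, 20.5% against 22.2%. The medians were 0.044 and 0.16, against -0.015 and -0.0054. The list was thus called no more often than all genes. LDHA rose in the clones as well, by 0.41 ± 0.11 in clone B and 0.51 ± 0.11 in clone A; these responses differed from the parental one by -1.21 ± 0.15 and -1.10 ± 0.15 (adjusted p = 7.86e-06 and 3.07e-05). SLC9A5, another sodium-proton exchanger, rose in all 3 genotypes (1.03 ± 0.27 in clone B, 1.22 ± 0.27 in clone A and 1.32 ± 0.31 in parental cells).

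TIFM called 5 of the list higher and 20 lower in clone B, 9 and 21 in clone A, and 2 and 20 in parental cells. The share called was 56.8%, 68.2% and 50% of the 44, against 53.7%, 67.2% and 42.2% of all genes. The share called lower was 45.5%, 47.7% and 45.5%, against 27.9%, 34.2% and 20.4% of all genes, and this difference from all genes was not tested. Among the listed genes of the SLC4 and SLC26 families, 10 were tested. Of these, 6 fell in clone B, 6 in clone A and 5 in parental cells, against 1, 0 and 0 that rose. At 10 genes this is a description only, and it does not measure bicarbonate transport. SLC4A8, which exchanges sodium and bicarbonate for chloride, fell by log2 values of -1.94 ± 0.17 in clone B, -3.36 ± 0.18 in clone A and -1.40 ± 0.16 in parental cells. SLC4A11, of the same family, fell in all 3 as well (-1.65 ± 0.29, -3.47 ± 0.32 and -1.49 ± 0.30). SLC26A6, an anion exchanger, fell in all 3 (-1.38 ± 0.14 in clone B, -2.41 ± 0.15 in clone A and -0.92 ± 0.13 in parental cells), as did SLC16A5 (-1.59 ± 0.18, -2.16 ± 0.19 and -0.83 ± 0.17 in the same order). SLC16A13 fell in all 3 as well (-1.87 ± 0.25, -3.26 ± 0.29 and -2.60 ± 0.23). The median of the 44 was -0.45 in clone B, -0.45 in clone A and -0.475 in parental cells, against -0.029, -0.026 and -0.0032 over all genes.

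Against parental cells in hypoxia, 3 of the 44 were higher and 11 lower in clone B, and 9 higher and 13 lower in clone A. That was 31.8% of the list in clone B against 35.9% of all genes, and 50% in clone A against 41.4%. CA8, a carbonic anhydrase relative without enzyme activity, was lower in both clones in all 3 conditions. In hypoxia it was at 13.1 ± 1.89 CPM in clone B and 29.3 ± 4.17 CPM in clone A, against 133 ± 7.40 CPM in parental cells (SD, n = 3 each). LDHA in hypoxia was also lower in both clones, with log2 differences from parental cells of -1.74 ± 0.11 in clone B and -1.73 ± 0.11 in clone A.

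The genes whose pattern over the 9 group means was most like that of a member were found by Pearson correlation of log2 CPM among 10506 genes with a mean of 5 CPM or more in some group. The 9 points share libraries, genotypes and media, so these values only describe. SLC16A3 was closest to MATCAP1, MBTPS1 and TRPT1 (r = 0.993, 0.992 and 0.991), SLC16A1 to GABARAPL1, NEDD4L and RRAGC (0.973, 0.970 and 0.950), and SLC16A14 to VGLL3, BCL10 and F2RL1 (0.939, 0.934 and 0.932). SLC4A7 was closest to MBTD1, HMBOX1 and CYB5R4 (0.963, 0.948 and 0.942), CA12 to genes that include SERPINB1 and STC1 (0.9753 and 0.964), and CA2 to SYT9, PRIM1 and CHD5 (0.976, 0.971 and 0.966). CA9 was below the level set for this. Among the members themselves the highest value was between CA9 and CA12 (0.848), and the lowest between CA12 and CA2 (-0.799).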

How the data were processed

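The files hold 1 count table of 27 polyA RNA libraries. Per the submitters' processing notes, the authors used HISAT2, featureCounts and GRCh38. The sources used here give no version, annotation or strand setting. The deposited values are raw counts per gene, and were used as deposited. Totals were 26057022 to 38341713 counts per library. No pair of libraries had identical counts.

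Genes were kept with edgeR's filterByExpr by group (minimum count 10, minimum total 15), which left 13943. Counts were scaled by TMM and fitted with 1 coefficient per group over all 27 libraries in edgeR 4.0.16 (R 4.3.3, limma 3.58.1). The robust quasi-likelihood test gave 21 contrasts, each with Benjamini-Hochberg adjustment over all tested genes and a threshold of 0.05. The fit was also run on simulated data in which a gene had the same spread in all groups. That run could not check the unequal spread of the groups here. A single ratio was compared by an exact permutation test. CA9 ratios came from summed counts with exact 95% intervals, which cover counting error only, and a floor of 3 counts over a group. IDs matched a reference annotation of GRCh38 for exon lengths and overlaps.

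All 7 members were tested in every comparison, though not every member value is reported here. From the wider list of 65 genes, a gene was named only if called, with a mean of 5 CPM or more in a group, and among the 4 with the largest changes in that contrast. A few genes that these rules name are not reported here. The members and lists were chosen with earlier results of these data known. Alternatives were RLE size factors, no low-count filter, a replicate block, DESeq2 1.42.0, a fit of the compared groups alone, and leaving out each library.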

Additional observations from a re-analysis of the deposited data

Results flagged for a closer look

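The genes below are singled out because the response to a condition differed between genotypes in a test of the difference itself (edgeR, adjusted p under 0.05). Values are log2 differences of response ± SE.

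For hypoxia against normoxia, the response of SLC16A3 differed from the parental one by -1.072 ± 0.294 in clone B and -1.015 ± 0.294 in clone A. SLC16A14 differed by 1.238 ± 0.172 in clone B and 1.262 ± 0.173 in clone A. CA12 differed by -2.525 ± 0.281 in clone B and -1.692 ± 0.325 in clone A. CA9 differed by -4.616 ± 1.18 in clone B, where its 3 libraries held 0, 1 and 7 counts in hypoxia. CA9 passed the low-count filter only through the parental hypoxic groups, and without the filter this difference was -4.62 ± 1.22 (adjusted p = 0.0283).

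For TIFM against regular medium in hypoxia, the response of SLC16A14 differed from the parental one by -0.6794 ± 0.173 in clone B and -0.68 ± 0.175 in clone A. SLC4A7 differed by 1.162 ± 0.311 in clone B and -1.284 ± 0.311 in clone A, so the clones stood on opposite sides of parental cells. CA12 differed by -1.494 ± 0.278 in clone B and -1.678 ± 0.328 in clone A. In clone A SLC16A3 differed by -1.364 ± 0.299. The fitted CA9 value in clone A was 5.099 ± 1.87 and rests on a group with no count, so its size is no bound. Its adjusted p was 0.0344 with the filter, which CA9 passed only through parental hypoxic groups that this comparison uses. Leaving out any of 6 libraries lost that call. Without the filter the CA9 value was 5.1 ± 1.83 (adjusted p = 0.0367).

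Between clone B and clone A, the TIFM response differed by 1.104 ± 0.3 for SLC16A3 and 2.446 ± 0.314 for SLC4A7. The fitted CA9 value of -6.253 ± 2.21, with the filter, rests on the same group with no count. Leaving out any of 7 libraries lost its call (adjusted p up to 0.223). Without the filter the CA9 value was -6.233 ± 2.14 (adjusted p = 0.0281).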

How the results depend on the processing

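Of 147 gene values, the direction and side of the threshold held for 142 with RLE size factors, 143 without a low-count filter, 138 with DESeq2 and 145 with a replicate block, and for 118 of 136 in fits of the compared groups alone, which gained 10 calls and lost 7. The other 11 values, all of CA9, could not be fitted there because CA9 did not pass the filter. Values near 0 changed sign. SLC16A1 for hypoxia in clone A was 0.0204 with RLE, 0.0018 with the block, 0.0205 with DESeq2 and 0.026 with the compared groups alone. The TIFM response of CA2 in clone A against parental cells was 0.037, 0.013 and 0.039 with RLE, no filter and DESeq2. That of SLC16A14 in clone B against clone A was -0.027, -0.0026 and -0.032 in the same order. With the compared groups alone, 4 members were called for hypoxia in clone B, 2 for TIFM in parental cells and 3 between clone B and clone A in TIFM. The cause was not tested.

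Leaving out 1 library, the members called ran from 1 to 3 for hypoxia in clone A, 1 to 2 in clone B, 2 to 3 for TIFM in parental cells, and 2 to 4 for the hypoxia response of clone B against parental cells. Values that changed sign ranged as follows. SLC16A1 ran from -0.039 to 0.050 for hypoxia in clone A, -0.15 to 0.035 for clone A against parental cells in TIFM, -0.0084 to 0.031 and -0.0037 to 0.12 for clone B against parental cells in hypoxia and TIFM, and -0.020 to 0.11 for its TIFM response in clone B against parental cells. CA12 ran from -0.15 to 0.22 for hypoxia in clone B. CA9 ran from -4.39 to 0.52 for TIFM in clone B, -3.95 to 0.95 for that response against parental cells, and -0.72 to 2.50 for the hypoxia response of clone B against clone A. CA2 ran from -0.16 to 0.17 for the TIFM response of clone A and -0.0036 to 0.27 for the hypoxia response of clone B, both against parental cells. SLC4A7 ran from -0.11 to 0.064 for the hypoxia response and SLC16A3 from -0.46 to 0.044 for the TIFM response of clone B against parental cells. Between clone B and clone A, SLC16A3 ran from -0.14 to 0.033 and SLC16A14 from -0.058 to 0.015 for hypoxia, and SLC16A14 from -0.15 to 0.091 for TIFM.

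Counts over all genes moved more in fits of the compared groups alone. They called 4242 genes in place of 1297 for hypoxia in clone B, 4860 in place of 3097 in clone A and 6804 in place of 4212 in parental cells. Against parental cells they called 5402 in place of 8597 for clone A in TIFM and 5710 in place of 3697 for clone B in normoxia. Between clone B and clone A they called 3802 in place of 7823 in TIFM and 6834 in place of 3002 in normoxia. For differences of response they called 2592 in place of 660 (hypoxia, clone B against parental), 2656 in place of 869 (hypoxia, clone A against parental), 57 in place of 0 (hypoxia, clone B against clone A), 3539 in place of 5426 (TIFM, clone A against parental) and 3252 in place of 5583 (TIFM, clone B against clone A). Leaving out 1 library gave as few as 527 genes for hypoxia in clone B, 1916 in clone A and 933 in place of 1450 for the TIFM response of clone B against parental cells.

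No contrast had same-numbered libraries whose deviations correlated above 0.1 in all 3 pairs, so replicate numbers were not taken as pairs. That rule is a convention, and some TIFM pairs correlated more. For replicates 1, 2 and 3 in TIFM the values were 0.372, 0.0704 and 0.45 between clone B and clone A. They were 0.0645, 0.126 and 0.25 between clone B and parental cells, and 0.233, 0.195 and -0.0424 between clone A and parental cells. The cause of these values was not tested. With the replicate block, SLC4A7 for TIFM in clone B was called (0.51, adjusted p = 0.0473), and no other call changed. Depth limits CA9 most, with 0 to 43 counts a library.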

Other observations

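These genes were chosen after their values were seen. LDHB, the lactate dehydrogenase subunit known for turning lactate back into pyruvate, had 11 counts over all 27 libraries and no more than 3 in any of them, beside LDHA at 787.3 CPM or more in every library. BSG and EMB, the chaperones that bring monocarboxylate transporters to the cell surface, were not called for hypoxia in any genotype. In TIFM BSG rose in clone A (log2 0.59 ± 0.17, adjusted p = 0.00311 in edgeR), while EMB fell (-0.99 ± 0.21, adjusted p = 0.00021). In that comparison 67.2% of all genes were called. Of the 10 tested genes in their part of the wider list, TIFM called 0 higher and 3 lower in parental cells. BSG was thus not called higher there. In clone B 1 of the 10 was called higher and 3 lower.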
